A study of Mus musculus with 10 samples.

Results

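The Notch pathway was examined in brain endothelial cells (BECs) through 9 genes: the receptors Notch1 and Notch4, the ligands Dll4, Jag1 and Jag2, the nuclear factor Rbpj, and the target genes Hes1, Hey1 and Heyl. They were chosen by name, as the rows of the deposited expression table that carry these symbols in GENCODE M21, and all 9 were found among the 14106 genes of the table. Cortical BECs of female mice aged 1 year, all on a C3H/BL6 background, gave 5 APP/PS1 libraries and 5 libraries of controls of the same age, which the labels call WT. APP/PS1 mice carry a Swedish mutant APP and a mutant human presenilin 1 that lacks an exon, and they deposit Aβ in the brain. The promoter that drives these transgenes is not given in the sources used here. Presenilin 1 is the catalytic subunit of γ-secretase, the enzyme that also cleaves Notch receptors, and the level of its own gene is not reported here. BECs were enriched with CD31 beads after removal of myelin, and the CD31+CD45- share was checked by flow cytometry. Whether a library holds 1 mouse or a pool is not given in the sources used here. Each SD over libraries therefore describes the spread between libraries, after the correction for batch described below. Each p value from the fit with batch as a term rests on the spread of the differences within batches.

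Notch receptors are read out by contact between neighbouring cells. A ligand of the Delta or Jagged type pulls on the receptor, proteases of the ADAM family and then γ-secretase cut it, and the freed intracellular domain enters the nucleus, where it binds Rbpj and a coactivator of the Mastermind family. Rbpj otherwise holds corepressors on the same sites, and among the genes that it controls are the Hes and Hey repressors. In blood vessels Dll4, Notch1 and Notch4 are known for arterial identity and for the choice between tip and stalk cells of a sprout, while Notch3 and Heyl are best known in the mural cells (pericytes and smooth muscle cells) that lie on the endothelium.

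The values are log2 CPM, the log2 of a gene's counts scaled to the size of its library, after the authors' correction for batch. The libraries summed to between 22993426 and 126686149 adjusted counts in control and between 22371766 and 114525432 in APP/PS1 mice, with replicate 1 the smallest in both groups. Batch here means 1 control and 1 APP/PS1 library with the same replicate number. The supplement of the study shows 5 such batches, while the labels give 4, with replicates 4 and 5 together. The correction set the means of the 5 batches nearly equal. In the median gene those means had an SD of 0.00353 log2 units, compared with 0.0863 for how far an APP/PS1 library lay from its batch mean. A control library that is high is therefore paired with an APP/PS1 library that is low by about as much, and groups that do not overlap are nearly the same observation as 5 batches with 1 direction. All 15 endothelial markers were measured, at 8.42 to 12.8 log2 CPM, and their log2 fold changes had a median of 0.025. Markers of other cells had lower median levels, although the mural marker Rgs5 reached 8.50 log2 CPM, and were mostly lower in APP/PS1 libraries, with median log2 fold changes of −0.77 for 13 mural, −0.66 for 10 astrocyte, −2.42 for 8 oligodendrocyte, −0.67 for 7 oligodendrocyte precursor, −0.39 for 5 neuron, −0.093 for 8 microglia, −0.58 for 4 fibroblast and −1.16 for 4 erythroid genes. At 0 adjusted counts in at least 1 library were 2 of the oligodendrocyte and 1 of the oligodendrocyte precursor markers, and none in the other lists.

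Between APP/PS1 and control BECs, 0 of the 9 Notch pathway genes passed an adjusted p under 0.05 by limma with batch as a term. The same held for all 14106 genes (0%), of which 1133 (8.03%) had an unadjusted p under 0.05. With the precision weights of limma-voom 0 genes passed and 1025 had an unadjusted p under 0.05. Without the batch term limma called 648 genes (4.59%), Hes1 and Heyl among them. That fit counts the 2 mirrored libraries of a pair as independent, so its p values are too small. The mean was higher in APP/PS1 mice for 7 of the 9 genes, with a median log2 fold change of 0.098, compared with 6798 of all 14106 genes and a median of −0.00377. An unadjusted p under 0.05 was found for Hes1 among the genes that were higher, a direction that held for 300 genes (2.13%) of the table, and for Heyl among those that were lower, as for 833 genes (5.91%). Hes1 and Heyl were also the 2 genes whose APP/PS1 and control libraries did not overlap, compared with 1111 genes (7.88%) of the table, and whose direction was the same in all 5 batches, compared with 1127 genes (7.99%).

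**Figure D1:**
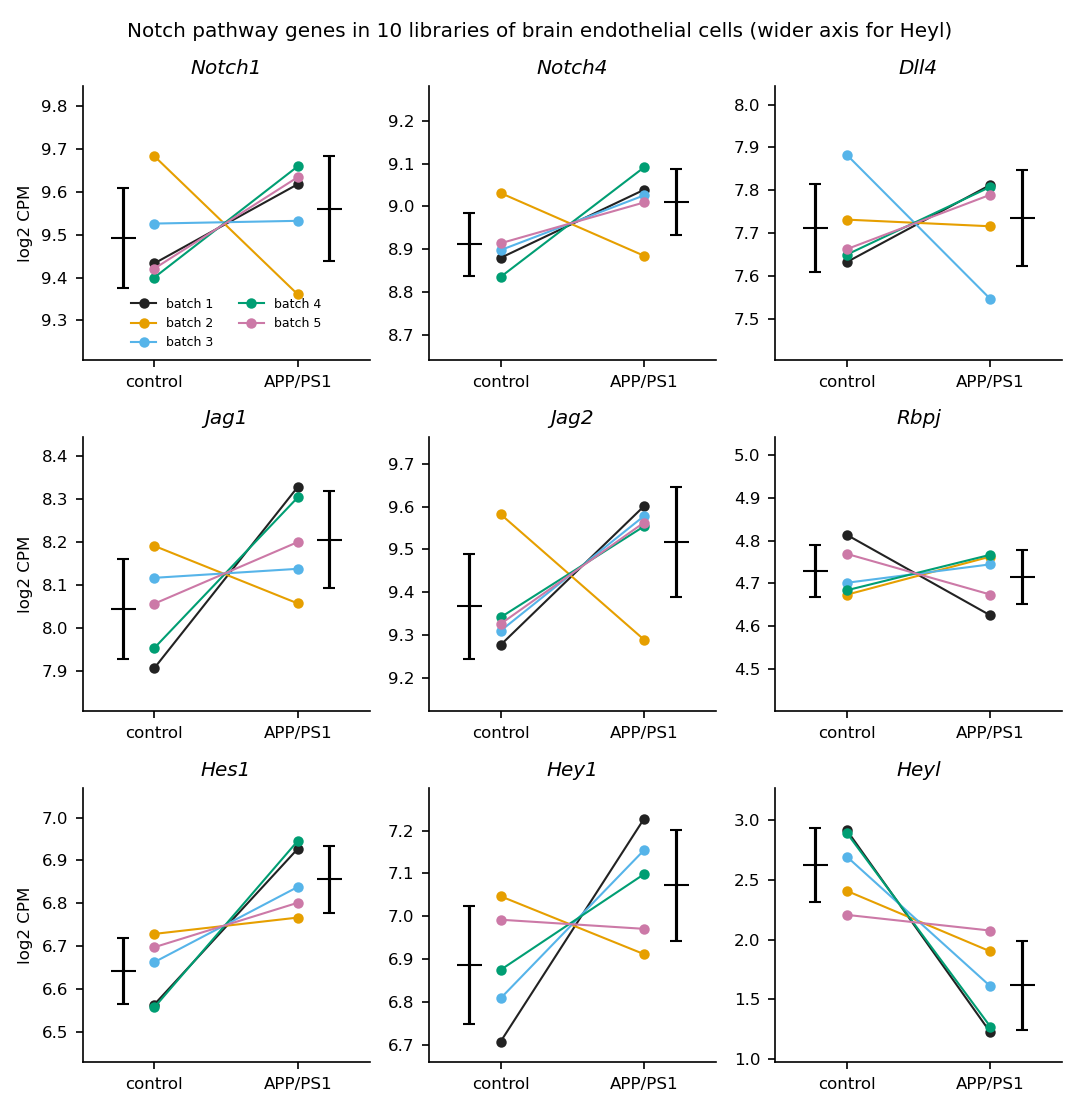
Level (log2 CPM) of each of the 9 genes in the 5 control and 5 APP/PS1 libraries, with lines joining the 2 libraries of a batch and bars giving the mean and SD of each group (n = 5). Every axis spans the same number of log2 units except that of Heyl, which is wider. The lines of Hes1 all go up and those of Heyl all go down, while batch 2 runs against the other batches in Jag2 and Notch4.

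Notch1, the receptor on chromosome 2 (26457903 to 26516663, minus strand, GRCm38), had levels of 9.43, 9.68, 9.53, 9.40 and 9.42 log2 CPM in control replicates 1 to 5 and of 9.62, 9.36, 9.53, 9.66 and 9.63 in APP/PS1 replicates 1 to 5. The groups overlapped, because the control library of batch 2 was the highest and its APP/PS1 partner the lowest of all 10 libraries. Its log2 fold change was 0.068 (standard error 0.0967, 95% confidence interval −0.17 to 0.31, adjusted p = 0.901 from limma). Leaving out replicate 2 gave 0.17, and leaving out replicate 1, 4 or 5 gave 0.039, 0.020 and 0.032. Of the 14232 exon bases of Notch1, 1068 are shared with 0610009E02Rik and 414 with Gm13568 on the opposite strand. Whether counting used the strand is not given in the sources used here. It is therefore not known whether reads in the shared bases were told apart.

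Notch4, the receptor found mainly in endothelium, lies on chromosome 17 (34564268 to 34588503, plus strand). Control replicates 1 to 5 had 8.88, 9.03, 8.90, 8.84 and 8.91 log2 CPM and the APP/PS1 replicates 9.04, 8.88, 9.03, 9.09 and 9.01. The APP/PS1 library was the higher one in 4 batches, by between 0.095 and 0.26 log2 units, and the lower one in batch 2, by 0.15. Its log2 fold change came to 0.098 (standard error 0.0677, 95% confidence interval −0.069 to 0.27, adjusted p = 0.815 from limma). Leaving out batch 2 gave 0.16, and leaving out batch 4 gave 0.059.

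Among the ligands, Dll4 is the Delta-type ligand of arterial and sprouting endothelium, on chromosome 2 (119325784 to 119335962, plus strand). Its levels were 7.63, 7.73, 7.88, 7.65 and 7.66 log2 CPM in the control and 7.81, 7.72, 7.55, 7.81 and 7.79 in the APP/PS1 replicates. Batches 1, 4 and 5 had differences of 0.18, 0.16 and 0.13 log2 units, batch 2 of −0.016 and batch 3 of −0.34, so the libraries of batch 3 were at opposite ends of the range. The mean difference of 0.023 log2 units (standard error 0.0886, 95% confidence interval −0.20 to 0.24, adjusted p = 0.966 from limma) was within the spread between replicates, and its sign depended on the scaling, with −0.015 when library size alone was used. Exons of Dll4 share 214 bases with Gm14207 on the opposite strand.

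Jag1, a ligand of both endothelial and smooth muscle cells on chromosome 2 (137081456 to 137116644, minus strand), had 7.91, 8.19, 8.12, 7.95 and 8.06 log2 CPM in control and 8.33, 8.06, 8.14, 8.30 and 8.20 in APP/PS1 replicates. The widest gaps were those of batches 1 and 4, at 0.42 and 0.35 log2 units, and the control library of batch 2 was the highest of its group and lay above 2 of the APP/PS1 libraries. Its log2 fold change was 0.16 (standard error 0.0938, 95% confidence interval −0.071 to 0.39, adjusted p = 0.772 from limma). Without replicate 1 it was 0.096, and without replicate 2 it was 0.23.

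Jag2, the other Jagged ligand, on chromosome 12 (112907819 to 112929776, minus strand), had the clearest exchange of a pair. Outside batch 2 the control replicates lay between 9.28 and 9.34 log2 CPM and the APP/PS1 replicates between 9.55 and 9.60, without overlap. In batch 2 the control library was at 9.58 and the APP/PS1 library at 9.29. Over all 5 batches the log2 fold change of Jag2 was 0.15 (standard error 0.101, 95% confidence interval −0.099 to 0.40, adjusted p = 0.813 from limma), and without batch 2 it was 0.26 (unadjusted p = 0.003, adjusted p = 0.206). Batch 2 was singled out because it ran against the others, so these last p values are no separate test.

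Rbpj, the DNA-binding factor to which the Notch intracellular domain attaches, on chromosome 5 (53466152 to 53657362, plus strand), was at 4.81, 4.67, 4.70, 4.68 and 4.77 log2 CPM in control and 4.63, 4.76, 4.74, 4.77 and 4.67 in APP/PS1 replicates. All 10 libraries lay within 0.19 log2 units, the groups overlapped, and 3 batches were higher and 2 lower. The log2 fold change was −0.014 (standard error 0.0597, 95% confidence interval −0.16 to 0.13, adjusted p = 0.970 from limma), and it turned to 0.0099 with limma-voom weights. Pseudogene copies of Rbpj exist in the mouse genome, so reads could be split between them.

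Of the target genes, Hes1, a repressor of the basic helix-loop-helix type on chromosome 16 (30064384 to 30067796, plus strand), was higher in the APP/PS1 library of every batch. The control replicates were at 6.56, 6.73, 6.66, 6.56 and 6.70 log2 CPM and the APP/PS1 replicates at 6.93, 6.77, 6.84, 6.95 and 6.80. The 2 groups did not overlap, but the highest control and the lowest APP/PS1 library, both of batch 2, were only 0.038 log2 units apart. The mean level of Hes1 was 6.64 ± 0.078 in the control group and 6.86 ± 0.078 in the APP/PS1 group (SD over 5 libraries), a fold of 1.16 with a 95% confidence interval of 1.03 to 1.31 (log2 fold change 0.21, standard error 0.0697, unadjusted p = 0.023, adjusted p = 0.569 from limma). Without the batch term, in the fit that counts mirrored libraries as independent, the adjusted p was 0.0415. Leaving out single replicates moved the log2 fold change between 0.17 and 0.26, and the unadjusted p was 0.0697 without replicate 1 and 0.0704 without replicate 4.

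Hey1, the Hes-related repressor on chromosome 3 (8663359 to 8667256, minus strand), had 6.71, 7.05, 6.81, 6.87 and 6.99 log2 CPM in control and 7.23, 6.91, 7.15, 7.10 and 6.97 in APP/PS1 replicates. It was higher in APP/PS1 libraries by 0.52, 0.35 and 0.22 log2 units in batches 1, 3 and 4 and lower by 0.14 and 0.021 in batches 2 and 5. The log2 fold change of 0.19 (standard error 0.106, 95% confidence interval −0.076 to 0.45, adjusted p = 0.770 from limma) had a wider error than that of Hes1. Without replicate 1 it was 0.10 and without replicate 2 it was 0.27.

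Heyl, the third of the targets, on chromosome 4 (123233556 to 123249875, plus strand), was the weakest of the 9 genes and the one with the widest difference. Its levels were 2.92, 2.41, 2.70, 2.90 and 2.21 log2 CPM in control replicates and 1.23, 1.90, 1.61, 1.27 and 2.08 in APP/PS1 replicates. The groups did not overlap, and the differences were −1.69 and −1.62 log2 units in batches 1 and 4, −1.09 in batch 3, −0.51 in batch 2 and −0.13 in batch 5. The mean was 2.63 ± 0.31 in the control group and 1.62 ± 0.38 in the APP/PS1 group (SD over 5 libraries). That is a log2 fold change of −1.01 (standard error 0.257, 95% confidence interval −1.64 to −0.37, unadjusted p = 0.00835, adjusted p = 0.537 from limma). Without the batch term, in the fit that counts mirrored libraries as independent, the adjusted p was 0.0276. The lowest library held 51 adjusted counts of Heyl, compared with at least 546 for each of the other 8 genes.

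The difference of Heyl ran beside those of the mural markers. Of 14 listed mural markers 13 were measured, and all 13 were lower in APP/PS1 libraries, with log2 fold changes from −0.94 to −0.65, an unadjusted p under 0.05 for 11 and an adjusted p under 0.05 for 0. Their summed level was 656 to 1098 CPM in control and 340 to 654 CPM in APP/PS1 libraries, and none of them was at 0 in any library. Over batches 1 to 5 the median difference of the mural markers was −1.61, −0.19, −0.63, −1.43 and 0.015 log2 units, and that of Heyl was largest in the same 2 batches. When the mean difference of the mural markers was taken from that of Heyl within each batch, a step added after the values were seen, −0.22 ± 0.16 log2 units remained (SD over 5 batches), below 0 in all 5. In bulk RNA, fewer mural cells and less RNA per mural cell cannot be told apart, and their part in the value of Heyl was not tested. Against the mean of the 15 endothelial markers, treated in the same way, Heyl was at −1.04 ± 0.72 and Hes1 at 0.18 ± 0.13, with Hes1 above 0 in all 5 batches.

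**Figure D2:**
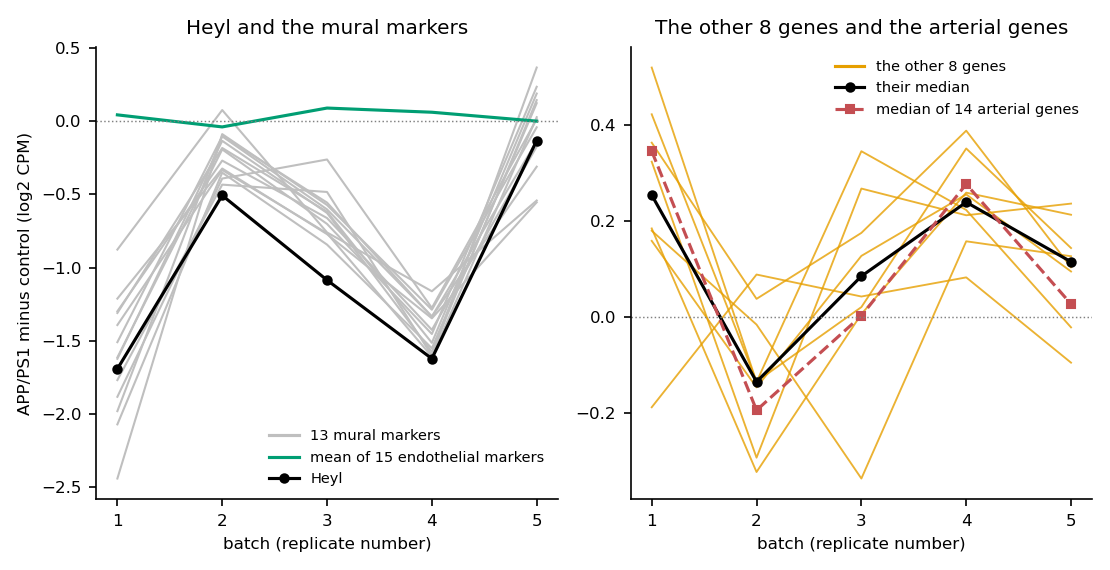
Difference between the APP/PS1 and the control library (log2 CPM) in batches 1 to 5. Left, Heyl (black), the 13 mural markers (grey) and the mean of the 15 endothelial markers (green); right, the other 8 Notch pathway genes (orange), their median (black) and the median of 14 arterial genes (red). Heyl and the mural markers are lowest in batches 1 and 4, and the medians on the right are below 0 only in batch 2.

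The genes whose 5 batch differences were most like those of Heyl were sought among 7648 genes with a mean of at least 4 log2 CPM, by the root mean square distance between the differences. The nearest were the mural genes Pdgfrb, the PDGF receptor of pericytes (0.289 log2 units), Myh11, the smooth muscle myosin heavy chain (0.294), and Vtn, which encodes vitronectin (0.295), and the receptor gene Notch3 was at rank 5. For Hes1 the nearest of 7647 genes were Shtn1 (0.056), Slc9a3r2 (0.0712) and Stk38l (0.0718). Their batch differences, for example 0.42, 0.033, 0.082, 0.35 and 0.15 in Shtn1 compared with 0.36, 0.038, 0.18, 0.39 and 0.10 in Hes1, were likewise largest in batches 1 and 4. The choice of these genes by likeness to Hes1 favours such a match.

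In batch 2, 7 of the 9 genes were lower in the APP/PS1 library, compared with 2 in batch 1 and 1 in batch 4. Without Heyl, the median difference of the other 8 genes was 0.25, −0.13, 0.085, 0.24 and 0.12 log2 units in batches 1 to 5. Among the markers of other cells, the medians of the oligodendrocyte, astrocyte and neuron lists rose above 0 in batch 2 alone. Those of the mural, oligodendrocyte precursor, fibroblast and erythroid markers stayed below 0 there, at −0.19, −0.42, −0.39 and −3.33. The microglia median was above 0 in batches 1 and 4 as well as in batch 2. The median difference of the oligodendrocyte markers was −4.09, 1.47, −1.83, −4.49 and −3.22 log2 units in batches 1 to 5, and that of the astrocyte markers −2.29, 0.15, −1.53, −0.60 and −0.054. Their part in the values of the pathway was not tested. When replicate 2 was left out, 6 genes were higher at an unadjusted p under 0.05 (Hes1, Hey1, Jag1, Jag2, Notch1 and Notch4) and Heyl was lower. In that fit 826 of all 14106 genes were higher and 1182 lower at such a p. Together these are 14.2%, compared with 8.03% with all replicates. Batch 2 had the lowest difference in each of the 6 genes, so leaving it out raises their means, and these p values are no separate test. The smallest adjusted p of the 9 genes without replicate 2 was 0.206. Leaving out any of the other replicates gave at most 1 gene that was higher and 1 that was lower at an unadjusted p under 0.05.

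**Figure D3:**
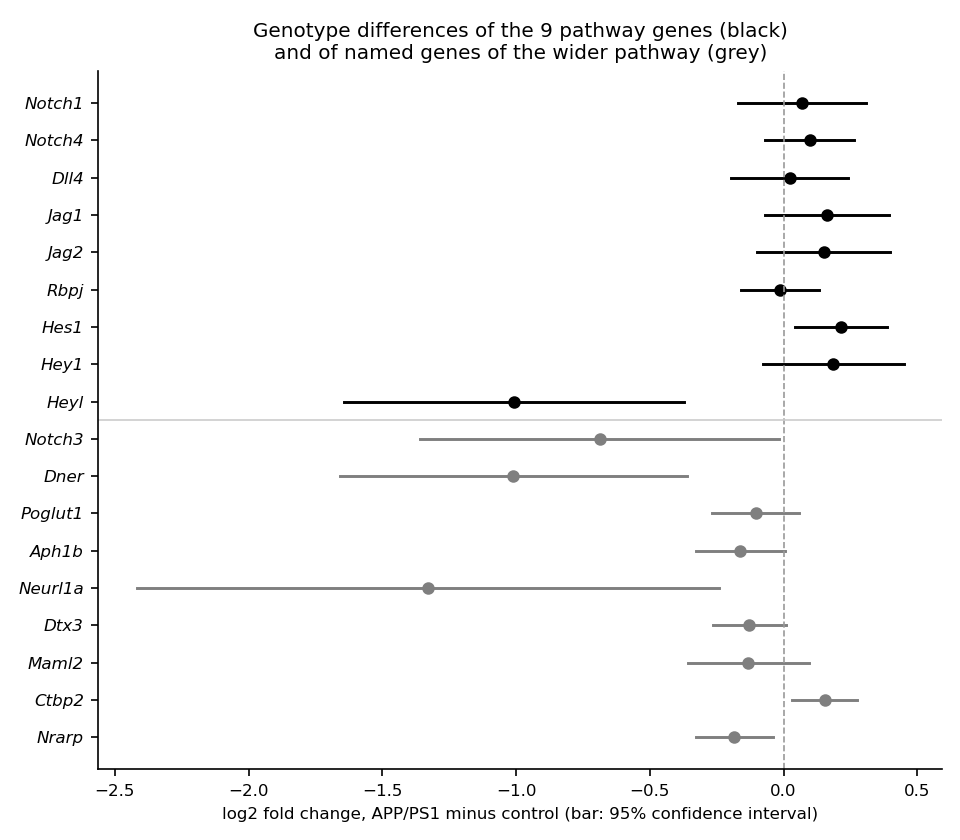
Log2 fold change (APP/PS1 minus control) of the 9 Notch pathway genes (black) and of the named genes of the wider pathway (grey), with the 95% confidence interval of the limma fit. Among the 9 genes the interval leaves out 0 for Hes1, at 0.21, and Heyl, at −1.01.

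Levels of different genes were compared per length, as log2 CPM minus log2 of the kb of exon. On this scale Jag2 was the highest of the 9 genes at 6.64, followed by Notch4 at 5.95, Dll4 at 5.78, Hes1 at 5.72, Notch1 at 5.70, Jag1 at 5.58, Hey1 at 5.27, Rbpj at 1.05 and Heyl at −0.23. The first 7 lay between percentile 92.7 and percentile 97.7 of all genes of the table, Rbpj at percentile 29.0 and Heyl at percentile 16.1. From Notch4 through Dll4, Hes1 and Notch1 to Jag1, each step was smaller than the sum of both SDs over the 10 libraries. Within a library Notch4 was above Dll4 in 9 of 10, Dll4 above Hes1 in 7, Hes1 above Notch1 in 5 and Notch1 above Jag1 in all 10. The steps from Jag2 to Notch4 (0.69 log2 units), from Jag1 to Hey1 (0.31), from Hey1 to Rbpj (4.22) and from Rbpj to Heyl (1.28) were larger than that sum, also in 10 of 10 libraries. The annotated exons of Rbpj add up to 12750 bases, while its longest transcript has 5485, which gives a level of 2.27 instead of 1.05. Percentiles were computed with the exon length alone. Without any length, Rbpj at 4.72 log2 CPM was above the median gene of the table at 4.30. With the length of the longest transcript, 4 genes kept their place (Jag2, Hes1, Rbpj and Heyl), Notch1 moved from place 5 to place 2, and Jag1 (5.64) and Hey1 (5.70) exchanged places, so the order of these last 2 depends on the length used.

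**Figure D4:**
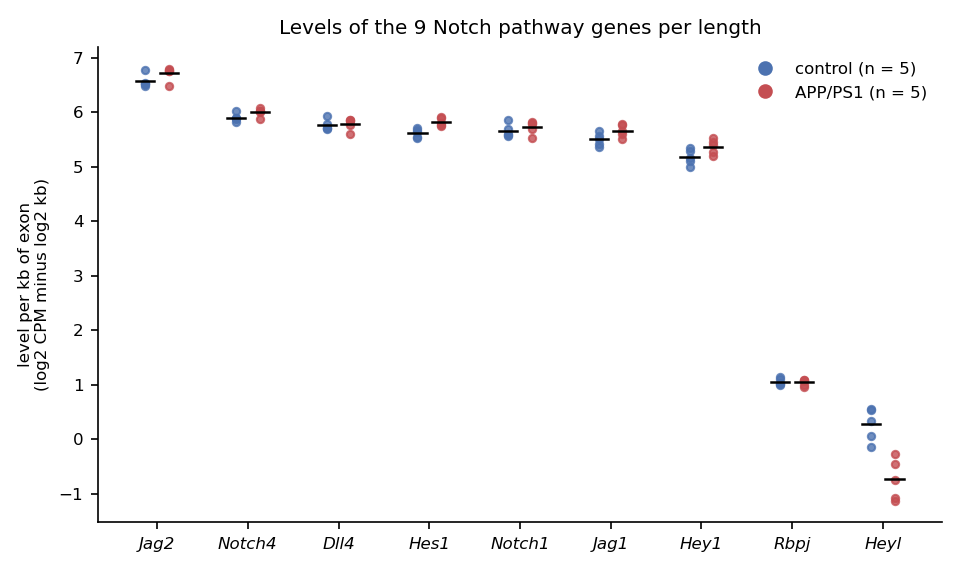
Level per kb of exon (log2 CPM minus log2 kb) of the 9 genes in 5 control (blue) and 5 APP/PS1 (red) libraries, with black bars for the group means. A total of 7 genes lie between 5.18 and 6.72 in the means of both groups, Rbpj is near 1.05, and Heyl is lowest in both groups.

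Within a library, ligands and receptors can be set against each other on the same scale. Dll4 exceeded Jag1 per kb by 0.26 ± 0.092 log2 units in the control and by 0.13 ± 0.097 in the APP/PS1 group (SD over 5 libraries), and the margin was positive in all 10 libraries. The smallest margin was 0.0066, in APP/PS1 replicate 3, and its sign would change with the length of the longest transcript. The margin was narrower in the APP/PS1 library of 4 batches and wider in batch 2, with differences of −0.24, 0.12, −0.36, −0.19 and −0.017 log2 units. Notch1 minus Notch4 was −0.24 ± 0.059 in the control and −0.27 ± 0.060 in the APP/PS1 group. The sign depends on the length, since with the longest transcript Notch1 (6.28) lay above Notch4 (6.24). Hey1 minus Hes1 was −0.44 ± 0.091 and −0.46 ± 0.084. Jag2 exceeded Jag1 by 1.07 ± 0.088 and 1.05 ± 0.088. These last 3 margins had group means closer together than their SDs. No p is given, since the pairs are scores over genes chosen with earlier results in view.

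The wider pathway was described from 70 listed genes, of which 62 were in the table. None of the 62 passed an adjusted p under 0.05 by limma, 30 were higher and 32 lower in APP/PS1 libraries, and their median log2 fold change was −0.0085. An unadjusted p under 0.05 was found for 2 genes that were higher and 4 that were lower, shares close to the 2.13% and 5.91% of all genes. Without the batch term limma called 3 of the 62 (Ctbp2, Dner and Nrarp), compared with 4.59% of all genes in that fit.

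The other receptors and ligands (5 of 8 listed, median −0.083) included Notch3, the receptor of mural cells and itself one of the mural markers. Notch3 was at 6.15, 5.63, 5.87, 6.21 and 5.43 log2 CPM in control and 4.84, 5.45, 5.25, 4.69 and 5.62 in APP/PS1 replicates. The APP/PS1 library was the lower one in batches 1 to 4 and the higher one, by 0.19, in batch 5, with a log2 fold change of −0.69 (standard error 0.272, unadjusted p = 0.0463, adjusted p = 0.614 from limma). Dner, a Notch-binding protein known from neurons, lay near the lower end of the table, with group means of −0.39 (control) and −1.40 log2 CPM (APP/PS1), and lower in all 5 batches (log2 fold change −1.01, unadjusted p = 0.0091, adjusted p = 0.537). Notch2 (0.046), Dll1 (−0.035) and Egfl7 (−0.083), a secreted endothelial protein that binds Notch, had log2 fold changes whose 95% confidence intervals held 0.

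The receptor glycosylation list (6 of 6 measured, median −0.042) includes the Fringe and O-fucose enzymes among others, and its smallest p belonged to Poglut1, an O-glucosyltransferase (log2 fold change −0.10, unadjusted p = 0.164). In the receptor cleavage list (9 of 10, median −0.027) it belonged to Aph1b, a γ-secretase subunit (−0.16, standard error 0.0675, unadjusted p = 0.0548, lower in 4 of 5 batches). Log2 fold changes of the proteases Adam10 and Adam17 were 0.018 and 0.048. The receptor turnover list (10 of 10, median 0.022) had its smallest p in Dtx3, of the Deltex family (−0.13, unadjusted p = 0.063, lower in all 5 batches). The log2 fold changes in this list ran from −0.93 in Dtx4 to 0.098, with Dtx4 (unadjusted p = 0.0761) and Dtx1 (−0.59, unadjusted p = 0.0884) both weakly expressed, at 0.50 and −0.75 log2 CPM.

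For ligand endocytosis, which lets the sending cell pull on the receptor, 7 of 7 genes were measured, with a median of −0.033. Mib1, the main ubiquitin ligase of this step, had a log2 fold change of 0.023. Neurl1a, a related ligase at −0.90 log2 CPM on average, had −1.33 (standard error 0.441, unadjusted p = 0.0247, adjusted p = 0.570 from limma). Outside batch 2 its control libraries were at −0.034 to 0.042 log2 CPM and its APP/PS1 libraries at −1.99 to −1.71. In batch 2 the control was at −1.24 and the APP/PS1 library at −0.46. The medians of the oligodendrocyte and astrocyte markers were also of the opposite sign in that batch, and their part in the value of Neurl1a was not tested. The lowest library held 6 adjusted counts of Neurl1a. Without replicate 2 the log2 fold change of Neurl1a was −1.86 with an adjusted p of 0.0261, the only call in the wider pathway when a replicate was left out. Batch 2 ran against the other batches in Neurl1a, so that p is no separate test.

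On the nuclear side, 8 of 8 coactivators had a median of 0.029, with the smallest p for Maml2, a Mastermind coactivator (−0.13, unadjusted p = 0.200). Of the 14 corepressors, all measured, 10 were higher in APP/PS1 libraries, with a median of 0.037. Ctbp2 was higher in all 5 batches, from 6.51 to 6.66 log2 CPM in the means (log2 fold change 0.15, standard error 0.0495, unadjusted p = 0.022, adjusted p = 0.569). Ctbp2 encodes a corepressor with many partners besides the Rbpj complex.

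Beyond the 3 targets among the 9 genes, 3 of 7 other genes listed as targets were in the table. All 3 were lower, against the direction of Hes1. Nrarp, a target that feeds back on the Notch complex, was at 5.13, 5.07, 5.09, 5.19 and 5.05 log2 CPM in control and 4.90, 4.96, 4.95, 4.83 and 4.98 in APP/PS1 replicates. Nrarp was lower in all 5 batches without overlap, with a log2 fold change of −0.18 (standard error 0.0579, unadjusted p = 0.0201, adjusted p = 0.569 from limma). Hey2 (−0.25, unadjusted p = 0.162) and Hes6 (−0.082, unadjusted p = 0.278) were each lower in 4 of 5 batches. Of the 6 genes listed as targets, Hes1 and Hey1 were thus higher in the mean and Nrarp, Heyl, Hey2 and Hes6 lower. Whether Notch controls each of them in these cells was not tested.

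**Figure D5:**
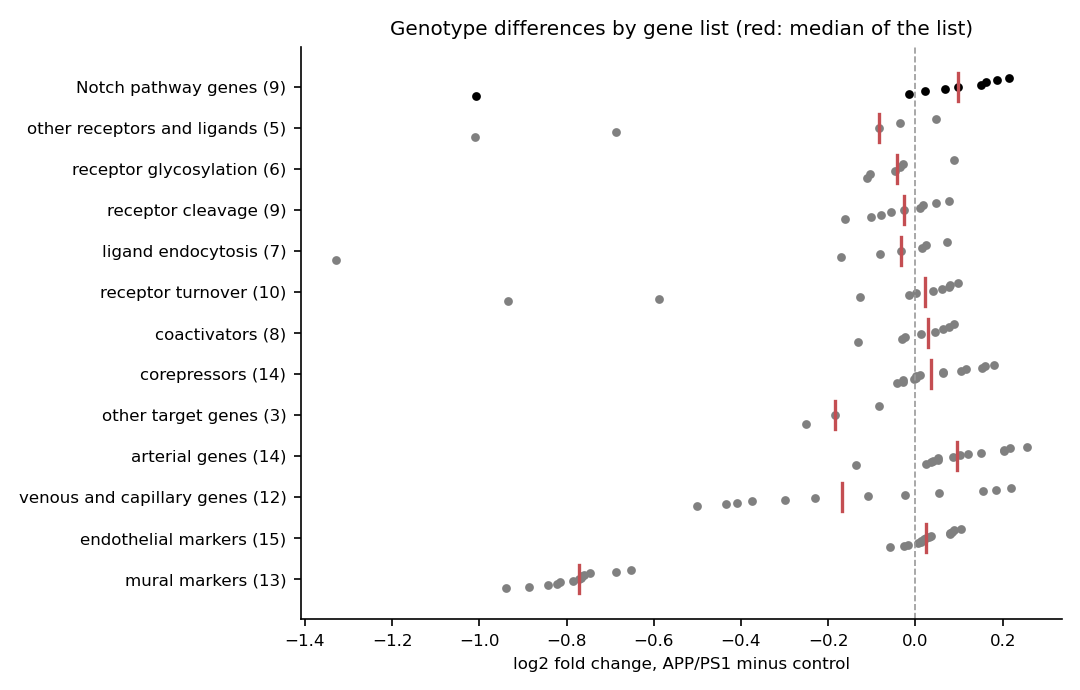
Log2 fold change (APP/PS1 minus control) of each measured gene in the Notch pathway lists and in the vessel segment and cell type lists, with the number of genes in brackets and a red bar at the median of each list. The medians of the wider pathway lists lie between −0.18 and 0.037, those of the arterial and of the venous and capillary genes at 0.094 and −0.17, and that of the mural markers at −0.77.

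Since Notch is known for arterial identity, genes of the vessel segments were set beside the pathway. Of 14 arterial genes 13 were higher in APP/PS1 libraries, 1 of them at an unadjusted p under 0.05 (2.13% of all genes), and the median log2 fold change was 0.094. Over batches 1 to 5 their median difference was 0.35, −0.19, 0.0028, 0.28 and 0.027 log2 units, so that batch 2 was again the one below 0. The most strongly expressed were Acvrl1 (10.3 log2 CPM, log2 fold change 0.036), Sema3g (9.54 and 0.15) and Alpl (8.97 and 0.20). Of 12 venous and capillary genes 8 were lower, 4 of them at an unadjusted p under 0.05 (5.91% of all genes), and 4 were higher. The median of −0.17 pools both segments, and a median of each segment was not computed. Here the most strongly expressed were Vwf (11.6 log2 CPM, log2 fold change −0.30, unadjusted p = 0.0319), and the capillary transporters Slc16a1 (9.79 and 0.15) and Tfrc (9.63 and 0.22). In both lists 0 genes passed an adjusted p under 0.05 by limma, and whether the share of arterial cells bears on the Notch pathway values was not tested.

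Promoter windows of the pathway genes were searched for TGGGAA, the core that Rbpj binds, on both strands. RefSeq windows (GRCm38.p6) from 250 bases before to 50 bases after a start site were found for 6 of the 9 genes (Notch1, Notch4, Dll4, Jag1, Jag2 and Rbpj). They have 7 windows in all, 2 of them of Rbpj. TGGGAA was found in 2 of the 7 windows, both of Rbpj, a share close to the 25.6% of the 32851 windows of the table. By gene that is 1 of the 6. The windows of Rbpj overlap, and the second holds 1 match, on the opposite strand at 205 bases before its start site. That match is the same genomic site as the match on the opposite strand in the first window. The longer GTGGGAA, which holds TGGGAA within it, was found in 0 of the 7, compared with 6.38%. The stretch before the start site of Rbpj at chr5:53590096-53590345 (GRCm38.p6, plus strand) is shown because it belongs to the gene with matches and holds 2 of them, in capitals, the first on the strand of the gene at 149 bases before the start site and the second on the opposite strand at 65 bases before it.
Rbpj: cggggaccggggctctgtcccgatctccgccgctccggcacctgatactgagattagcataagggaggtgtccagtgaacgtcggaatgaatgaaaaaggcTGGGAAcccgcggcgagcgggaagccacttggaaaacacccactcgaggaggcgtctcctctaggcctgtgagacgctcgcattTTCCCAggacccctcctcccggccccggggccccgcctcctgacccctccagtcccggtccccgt
These letters describe the reference sequence, and binding was not measured in these libraries.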

How the data were processed

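Bulk RNA sequencing of BECs was analysed in 5 control and 5 APP/PS1 libraries. Per the methods and the submitters' processing notes, reads were aligned to mm10 with STAR and counted with HTSeq-count, low count genes were filtered with filterByExpr of edgeR, log counts scaled to library size (CPM) were taken with cpm, and ComBat of sva was used for batch. Versions are not given in the sources used here. The authors deposited these values as batch-corrected log2 CPM for 14106 genes, and the 10 files per library equalled their columns of the table. In each library 100% of values converted back to whole adjusted counts, within 0.05, with a mean prior count of 3, which a correction of log values would not leave in general, so the step at which batch was corrected is not settled here. These adjusted counts are not reads, and the main fit used no counting error from them. The alternatives in scaling and prior count and the weights of limma-voom were computed from these adjusted counts. Fold changes include the prior count, which understates those of weakly expressed genes.

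The log2 values were fitted in R 4.3.3 with lmFit and eBayes of limma 3.58.1 (1 prior variance), with genotype and 5 batches as terms, which left 4 residual degrees of freedom. P values were adjusted over all 14106 genes (Benjamini-Hochberg), and those under 0.05 were called. Batches follow the replicate number, since the supplement of the study shows 5 batches of 1 control and 1 APP/PS1 library, while the labels give 4 (replicates 4 and 5 share one). Deviations of paired libraries from their group means had Spearman correlations across 10873 genes between −0.999 and −0.989, a sign that the correction for batch fixes. The fits were tested on simulated data. Symbols, positions and exon lengths came from GENCODE M21 (GRCm38, the assembly also called mm10), which named all 14106 identifiers. The 9 genes, all lists and the tests were chosen with earlier results of these data known. Named from each wider pathway list was every gene with an unadjusted p under 0.05 or, with none, the gene with the smallest p. A gene that this rule names is not reported here. From each marker list at most the 3 most strongly expressed genes could be named, and for Hes1 and Heyl the 3 genes nearest in their batch differences. Notch2, Dll1, Egfl7, Adam10, Adam17, Mib1, Dtx1, Dtx4, Hey2 and Hes6 were added after their values were seen. Sox10 is likewise outside the rule and was named because it was called with the 4 batches of the labels. Alternatives were no batch term, 4 batches, eBayes with a trend, library size alone, median-of-ratios size factors, a prior count of 0.5, a mean of at least 1 log2 CPM, limma-voom weights, a threshold of 0.10, the longest transcript as length, and each replicate left out.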

Additional observations from a re-analysis of the deposited data

Results flagged for a closer look

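In 46 groups of 5 libraries, 4 held a library whose gap to its nearest neighbour was unusually large against the range of the group by Dixon's 95% criterion, where chance would give about 2.3. All 4 were libraries of batch 2. For Jag2 the control library of replicate 2 was at 9.58 log2 CPM, compared with 9.28 to 9.34 in the other control libraries, and the APP/PS1 library of replicate 2 was at 9.29, compared with 9.55 to 9.60. For Neurl1a the control library of replicate 2 was at −1.24 log2 CPM, compared with −0.034 to 0.042, and the APP/PS1 library at −0.46, compared with −1.99 to −1.71. The 2 libraries of a pair mirror each other after the correction for batch, so each gene counts as 1 observation. Whether the 2 libraries of this batch differ from the others in a technical way was not tested.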

How the results depend on the processing

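Of 117 recomputed log2 fold changes of the 9 Notch pathway genes under 13 alternatives, 108 kept their direction and their side of the threshold. Without the replicate block, 2 of the 9 genes passed an adjusted p under 0.05, Hes1 (log2 fold change 0.21, adjusted p = 0.0415) and Heyl (−1.01, adjusted p = 0.0276), as did 3 of the wider pathway, 12 of the marker genes and 648 of all genes since more residual degrees of freedom were then counted. Over the other alternatives the adjusted p lay between 0.262 and 0.950 for Hes1 and between 0.246 and 0.929 for Heyl. The 4 batches of the labels gave 1 called gene, Sox10 of the oligodendrocyte precursor markers. Library size alone turned Dll4 to −0.015 and moved the median of all genes to −0.0409, and limma-voom turned Rbpj to 0.0099. With each replicate left out in turn, Dll4 lay between −0.017 and 0.11 and Rbpj between −0.039 and 0.030, and the number of genes called lay between 0 and 5 in the table (5 without replicate 2, which were Neurl1a, Pde1b, Car12, Shank2 and Anks1b, and 1 without replicate 5, Prg2, all named after their values were seen), between 0 and 1 in the wider pathway and at 0 for the 9 genes and the marker lists. The causes were not tested. With the longest transcript as length, 4 of the 9 genes kept their place in the order. Less the mean difference of the mural markers, Heyl was at −0.22. The other alternatives, including a threshold of 0.10, gave 0 calls, with 748 to 1161 genes at an unadjusted p under 0.05.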
